A study of Mus musculus with 151 samples.

Results

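The genes described here are 9 that mark the supporting cells and glia of the inner ear: the connexins *Gjb2*, *Gjb6* and *Gja1*, the glutamate transporter *Slc1a3*, the lipid-binding protein gene *Fabp7*, the transcription factor gene *Sox2*, and *Fbxo2*, *Cd9* and *Gsn*. They were chosen by name, with earlier results of these data known, and all 9 were found by symbol among the 55291 genes with counts. Their levels were followed cell by cell in 3 groups of hair cells from the mouse cochlea, to ask which of these markers occurred together in inner hair cells (IHCs) and in IHCs that had been turned into outer hair cell-like cells (iOHCs).

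Each library held 1 Tdtomato+ cell that was picked by hand after dissociation, amplified with a Smart-Seq HT kit and sequenced on its own. The 55 P14_WT IHCs and the 50 P30_WT IHCs came from C57BL/6 mice with the genotype vGlut3-P2A-iCreER/+; Ai9/+ at postnatal days 14 and 30, and the 46 P14_iOHCs came from vGlut3-P2A-iCreER/+; Tbx2 flox/-; Ai9/+ mice at day 14. All mice received tamoxifen in the first postnatal days. The iCreER is expressed from the *Slc17a8* (vGlut3) locus, which is active in IHCs, and switches on the Ai9 reporter; in the P14_iOHC mice it also removes the floxed *Tbx2* allele, and the other *Tbx2* allele is null in every cell. The iOHCs were picked for the reporter and for a body smaller than that of an IHC, so larger reporter-positive cells of the same mice are not among them. The labels name no animals. Each group was therefore treated as 1 sample of many cells, and values, spreads between cells and counting intervals are given without a test.

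In the organ of Corti, sensory hair cells are surrounded by supporting cells, which are coupled to each other by gap junctions. Connexins assemble into these channels, which pass potassium, other ions and small metabolites from cell to cell, and mutations of *Gjb2* are a common cause of inherited deafness. Hair cells are not thought to form such junctions in the mature cochlea. Supporting cells and glia also take up the glutamate that IHCs release, and several of the genes followed here are used to tell these cells from hair cells.

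*Gjb2* and *Gjb6*, the main connexin genes of cochlear supporting cells, are neighbours on chromosome 14 of GRCm38. *Gjb2* spans chr14:57098600-57104702 and *Gjb6* spans chr14:57123303-57133611, both on the minus strand, with 18600 bases and 1 annotated gene (*Gm4491*) between them. The 250 bases before the RefSeq start (GRCm38.p6) of these neighbours are shown because their levels moved together from cell to cell, and those of *Gja1*, on the plus strand of chromosome 10, because it is the connexin that was almost absent. Capitals mark the GC box GGGCGG on either strand. The windows lie at chr14:57104703-57104952 for *Gjb2*, chr14:57133612-57133861 for *Gjb6* and chr10:56377050-56377299 for *Gja1*.
Gjb2: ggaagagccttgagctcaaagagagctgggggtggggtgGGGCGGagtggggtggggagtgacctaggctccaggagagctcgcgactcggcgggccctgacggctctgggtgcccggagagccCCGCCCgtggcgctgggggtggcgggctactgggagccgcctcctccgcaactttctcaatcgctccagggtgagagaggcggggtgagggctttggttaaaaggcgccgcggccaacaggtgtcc
Gjb6: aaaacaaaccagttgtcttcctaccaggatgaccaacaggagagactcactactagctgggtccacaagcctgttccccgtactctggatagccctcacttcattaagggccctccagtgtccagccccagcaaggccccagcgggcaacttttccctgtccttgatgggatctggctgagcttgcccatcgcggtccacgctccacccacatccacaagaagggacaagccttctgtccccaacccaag
Gja1: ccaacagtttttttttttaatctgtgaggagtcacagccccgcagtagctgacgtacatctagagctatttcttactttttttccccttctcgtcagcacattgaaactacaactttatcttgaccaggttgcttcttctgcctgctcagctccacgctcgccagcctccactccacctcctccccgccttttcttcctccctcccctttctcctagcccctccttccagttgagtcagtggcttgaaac
The *Gjb2* window held 2 GC boxes and was 69.2% G or C, whereas those of *Gjb6* (56.8%) and *Gja1* (50%) held none. A GC box was present in 32.7% of 32851 promoter windows of this length. The SOX core AACAAT (9.42% of windows) and the TATA box TATAAA (12.4% of windows), searched on both strands, were absent from all 3 windows. No stretch of 50 bases in the transcripts of *Gjb2* or *Gjb6* was shared with another gene of the annotation, so reads on the paired neighbours can be told apart.

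Totals lay between 4326416 and 25035444 counts in a cell and left a gap between 10267217 and 11814928. Below the gap lay 51 cells (16 P14_WT IHCs, 12 P14_iOHCs and 23 P30_WT IHCs), here called the lower set of totals, and above it 100 cells, the upper set. Levels are given as CPM, the reads on a gene after scaling all reads of the cell to 1000000. A gene was called present in a cell at 10 CPM or more, which was at least 43.3 reads in the shallowest cell. *Slc26a5*, which encodes the OHC motor prestin, was present in 46 of 46 P14_iOHCs, 0 of 55 P14_WT IHCs and 0 of 50 P30_WT IHCs, and *Otof*, needed for IHC transmitter release, was present in every WT IHC and, at a lower mean (430 CPM, against 3657 CPM in P14_WT IHCs), in 44 of 46 P14_iOHCs. The IHC gene *Slc17a8* lay within the range of the P14_WT IHCs in 3 P14_iOHCs, which all held *Slc26a5*, and the results below are given with these cells in and, where named, without them. *Tbx2* was at 260 ± 127 CPM (SD, n = 55 cells) in P14_WT IHCs, 69.3 ± 87.4 CPM (SD, n = 46 cells) in P14_iOHCs and 193 ± 103 CPM (SD, n = 50 cells) in P30_WT IHCs. Its counts do not show whether an individual cell lost the gene, and in 19 P14_iOHCs its level lay within the range of the P14_WT IHCs.

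Most of the 9 markers were found at higher levels, and in a larger share of cells, among P14_iOHCs than among P14_WT IHCs. The ratio of the mean levels, computed as log2 of (mean CPM + 1) in P14_iOHCs over (mean CPM + 1) in P14_WT IHCs, passed 4-fold for 5 of the 9 genes (*Gjb2*, *Gjb6*, *Slc1a3*, *Cd9* and *Gsn*), and none was lower by that much. Over all 15956 genes that reached a mean of 1 CPM in either group, 6.62% were higher and 2.9% were lower by more than 4-fold, and the median log2 ratio was 0.09. Because the 9 genes were chosen with earlier results of these data known, these shares are given as a description only. *Gja1* did not reach the minimum of 1 CPM. *Fabp7* stood just inside 4-fold with a log2 ratio of 1.98, *Sox2* was at 1.00 and *Fbxo2* at 0.01. Without the 3 P14_iOHCs with *Slc17a8* in the range of P14_WT IHCs, an alternative chosen after the data were seen, 6 genes passed 4-fold, with *Fabp7* at 2.07, and *Gjb2* was at 2.58 and *Gjb6* at 2.86. The levels overlapped in every case, since each of the 5 genes was at 0 in at least 1 cell of both groups.

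**Figure D1:**
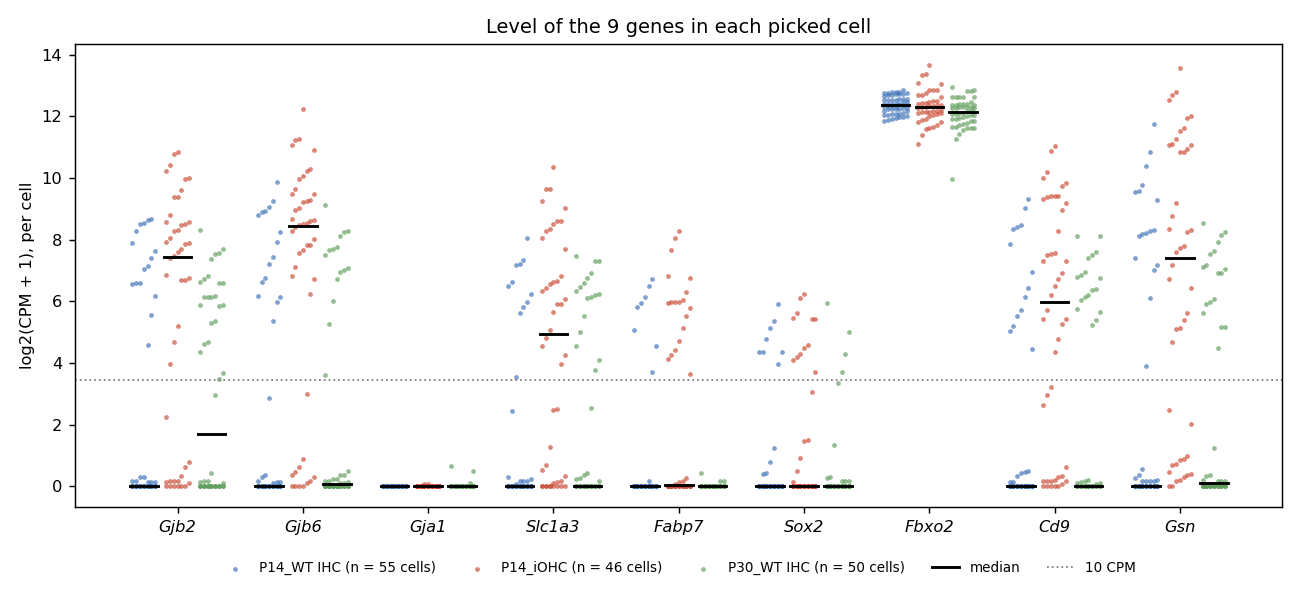
Level of the 9 genes in every cell, as log2(CPM + 1) on the vertical axis, with 1 point per cell for 55 P14_WT IHCs, 46 P14_iOHCs and 50 P30_WT IHCs. Black bars are medians and the dotted line is 10 CPM. Cells split into a cluster near 0 and a cluster above the line for 7 genes, *Fbxo2* was high in every cell and *Gja1* never reached the line.

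*Gjb6* encodes Cx30. Its level in the P14_WT IHCs ran from 0 to 934 CPM with a median of 0, in the P14_iOHCs from 0 to 4852 CPM with a median of 348, and in the P30_WT IHCs from 0 to 560 CPM with a median of 0.0399. The gene was present in 16 of 55 P14_WT IHCs (29.1%, exact 95% interval 17.6% to 42.9%), 34 of 46 P14_iOHCs (73.9%, 58.9% to 85.7%) and 15 of 50 P30_WT IHCs (30%, 17.9% to 44.6%). The groups overlapped, and 9 P14_iOHCs lay above the highest P14_WT IHC. The mean was 87.6 ± 193 CPM (SD, n = 55 cells) in P14_WT IHCs and 607 ± 905 CPM (SD, n = 46 cells) in P14_iOHCs, a log2 ratio of 2.78. The intervals given for shares of cells are Clopper-Pearson intervals and cover counting error only, since cells of a mouse are not independent.

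*Gjb2*, which encodes Cx26, showed the same order of the P14 groups. Its lowest, median and highest levels were 0, 0 and 410 CPM in P14_WT IHCs, 0, 174 and 1845 CPM in P14_iOHCs, and 0, 3.59 and 317 CPM in P30_WT IHCs. It was present in 16 of 55 (29.1%, 17.6% to 42.9%), 31 of 46 (67.4%, 52% to 80.5%) and 24 of 50 cells (48%, 33.7% to 62.6%), respectively. Here 10 P14_iOHCs exceeded the highest P14_WT IHC. The log2 ratio of the means, 329 ± 468 CPM against 57.2 ± 114 CPM, was 2.50.

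*Gja1*, which encodes Cx43 and is typical of astrocytes and of other coupled cells, had no count in any of the 55 P14_WT IHCs. Its counts came to 2 in 2 P14_iOHCs and to 10 in 3 P30_WT IHCs. It was therefore present at 10 CPM in 0 of 55, 0 of 46 and 0 of 50 cells (upper limits of the exact intervals 6.49%, 7.71% and 7.11%). No cell of any group held all 3 connexins. The 17 other connexin genes were also low: each had a mean under 10 CPM in every group, 4 of them passed the filter of the P14 comparison and none was higher in P14_iOHCs by more than 4-fold. Of the 3 pannexins, 1 passed the filter and it lay within 4-fold.

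*Slc1a3* encodes the glutamate transporter GLAST, by which supporting cells around IHCs and glia clear glutamate. Its levels ran from 0 to 266 CPM (median 0) in P14_WT IHCs, from 0 to 1299 CPM (median 29.5) in P14_iOHCs and from 0 to 177 CPM (median 0) in P30_WT IHCs. Cells with the gene numbered 11 of 55 (20%, 10.4% to 33%), 27 of 46 (58.7%, 43.2% to 73.0%) and 17 of 50 (34%, 21.2% to 48.8%). The log2 ratio of P14_iOHCs to P14_WT IHCs was 2.84, and 11 P14_iOHCs were above every P14_WT IHC.

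*Fabp7*, a fatty acid-binding protein gene of radial glia, satellite glia and cochlear supporting cells, was present in 8 of 55 P14_WT IHCs (14.5%, 6.50% to 26.7%; highest 105 CPM) and in 19 of 46 P14_iOHCs (41.3%, 27% to 56.8%; highest 313 CPM). None of the 50 P30_WT IHCs reached 10 CPM (upper limit of the exact interval 7.11%), and the 6 counts found in 3 of these cells gave a highest level of 0.350 CPM. The mean was 8.13 CPM in P14_WT IHCs, 35 CPM in P14_iOHCs and 0.0122 CPM in P30_WT IHCs. Between the ages this gave a log2 ratio of -3.17, which the 1 CPM added to each mean holds back. In the lower set of totals it was present in 0 of 16 P14_WT IHCs and the log2 ratio between the ages was 0.030.

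*Sox2*, a transcription factor gene of sensory progenitors that stays on in cochlear supporting cells, was low where it was found. Its highest level was 59.2 CPM in P14_WT IHCs, 74.6 CPM in P14_iOHCs and 61.2 CPM in P30_WT IHCs, and its median was 0 in each group. It was present in 8 of 55 (14.5%, 6.50% to 26.7%), 12 of 46 (26.1%, 14.3% to 41.1%) and 4 of 50 cells (8%, 2.22% to 19.2%), and these intervals overlap. *Sox2* lies within *Sox2ot* on the same strand of chromosome 3, with 0 exon bases shared.

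*Cd9*, a tetraspanin gene, and *Gsn*, which encodes the actin-severing protein gelsolin, covered wide ranges. *Cd9* ran from 0 to 641 CPM (median 0) in P14_WT IHCs, from 0 to 2128 CPM (median 62.4) in P14_iOHCs and from 0 to 279 CPM (median 0) in P30_WT IHCs, and was present in 14 of 55, 29 of 46 and 18 of 50 cells. For *Gsn* the ranges were 0 to 3446 CPM (median 0), 0 to 12091 CPM (median 169) and 0 to 371 CPM (median 0.0817), with 17 of 55, 31 of 46 and 18 of 50 cells. The log2 ratios of P14_iOHCs to P14_WT IHCs were 2.54 and 2.71. A single P14_WT IHC held 29.6% of the summed *Gsn* level of its group. An antisense transcript, *Gm26728*, shares 218 exon bases (10.7%) with *Cd9*, and 14.4% of the 50-base stretches of *Cd9* occur in other genes, so its level is less certain. Its pseudogene *Cd9-ps* had no count in any cell.

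*Fbxo2*, which encodes an F-box protein that binds glycoproteins, did not behave as a marker of a subset of cells. It was present in all 151 cells, at 3721 to 7361 CPM (median 5318) in P14_WT IHCs, 2224 to 13010 CPM (median 5104) in P14_iOHCs and 1002 to 7944 CPM (median 4507) in P30_WT IHCs. The groups overlapped throughout, with means of 5423 ± 1035, 5465 ± 2154 and 4645 ± 1397 CPM. Per kb of exon, *Fbxo2* (4243 ± 1673 CPM per kb) stood far above the others in P14_iOHCs. Below it came *Gsn* (440 ± 779), *Gjb6* (227 ± 338), *Cd9* (151 ± 240), *Gjb2* (137 ± 194), *Fabp7* (28 ± 54.6), *Slc1a3* (18.4 ± 31.8), *Sox2* (4.64 ± 9.12) and *Gja1* at 0.00025 CPM per kb. Apart from the step below *Fbxo2*, no pair of neighbours in the order of a group differed by more than the larger of their SDs over cells, in any of the 3 groups.

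The remaining markers occurred together in the same cells. Of the 7 genes that varied (all except *Fbxo2* and *Gja1*), none was present in 34 of 55 P14_WT IHCs (61.8%, 47.7% to 74.6%), in 10 of 46 P14_iOHCs (21.7%, 10.9% to 36.4%) and in 23 of 50 P30_WT IHCs (46%, 31.8% to 60.7%). At least 5 of the 7 were present in 11 P14_WT IHCs (20%, 10.4% to 33%), 25 P14_iOHCs (54.3%, 39% to 69.1%) and 8 P30_WT IHCs (16%, 7.17% to 29.1%). From 1 to 4 of the genes were present in 10 P14_WT IHCs, 11 P14_iOHCs and 19 P30_WT IHCs. The median cell held 0 of the 7 genes among P14_WT IHCs, 5 among P14_iOHCs and 1 among P30_WT IHCs.

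**Figure D2:**
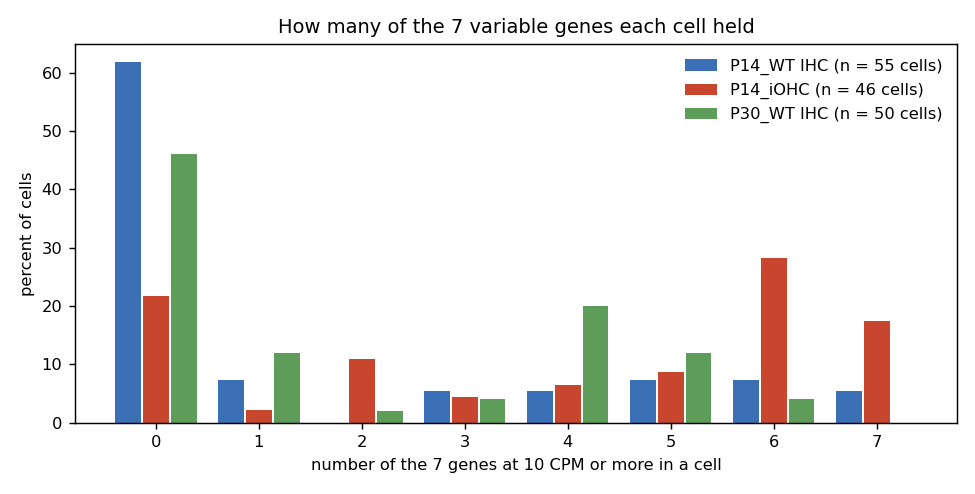
Number of the 7 variable genes present at 10 CPM or more in a cell (horizontal axis) against the percent of the cells of each group (vertical axis). Bars show the share of 55 P14_WT IHCs, 46 P14_iOHCs and 50 P30_WT IHCs; P14_WT IHCs peak at 0 genes (61.8%) and P14_iOHCs at 6 genes (28.3%) with a second peak at 0 (21.7%).

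Both *Gjb2* and *Gjb6* were present in 15 of 55 P14_WT IHCs (27.3%, 16.1% to 41%), 30 of 46 P14_iOHCs (65.2%, 49.8% to 78.6%) and 14 of 50 P30_WT IHCs (28%, 16.2% to 42.5%). Among the cells with *Gjb6*, *Gjb2* was also present in 15 of 16, 30 of 34 and 14 of 15, respectively. Among the cells without *Gjb6*, it was present in 1 of 39 P14_WT IHCs, 1 of 12 P14_iOHCs and 10 of 35 P30_WT IHCs. At this threshold *Gjb2* occurred without *Gjb6* in 10 P30_WT IHCs. The pairing depended on the threshold in the WT IHCs: at 100 CPM, *Gjb2* was present in 7 of 11 P14_WT IHCs, 28 of 33 P14_iOHCs and 4 of 12 P30_WT IHCs with *Gjb6*. Without the 3 P14_iOHCs with *Slc17a8* in the range of P14_WT IHCs, both genes were present in 28 of 43 P14_iOHCs (65.1%). Spearman's rho between their log2(CPM + 1) levels was 0.784 over 55 P14_WT IHCs (Pearson's r 0.95), 0.877 over 46 P14_iOHCs (r 0.848) and 0.691 over 50 P30_WT IHCs (r 0.709). The cells of a group share their preparation and differ in depth, and cells at 0 for both genes contribute to these values. Within the upper set of totals rho was 0.785 over 39 P14_WT IHCs, 0.847 over 34 P14_iOHCs and 0.662 over 27 P30_WT IHCs. Within the lower set it was 0.917 over 12 P14_iOHCs and 0.683 over 23 P30_WT IHCs, and only 2 of 16 P14_WT IHCs held *Gjb6*, too few for a value.

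**Figure D3:**
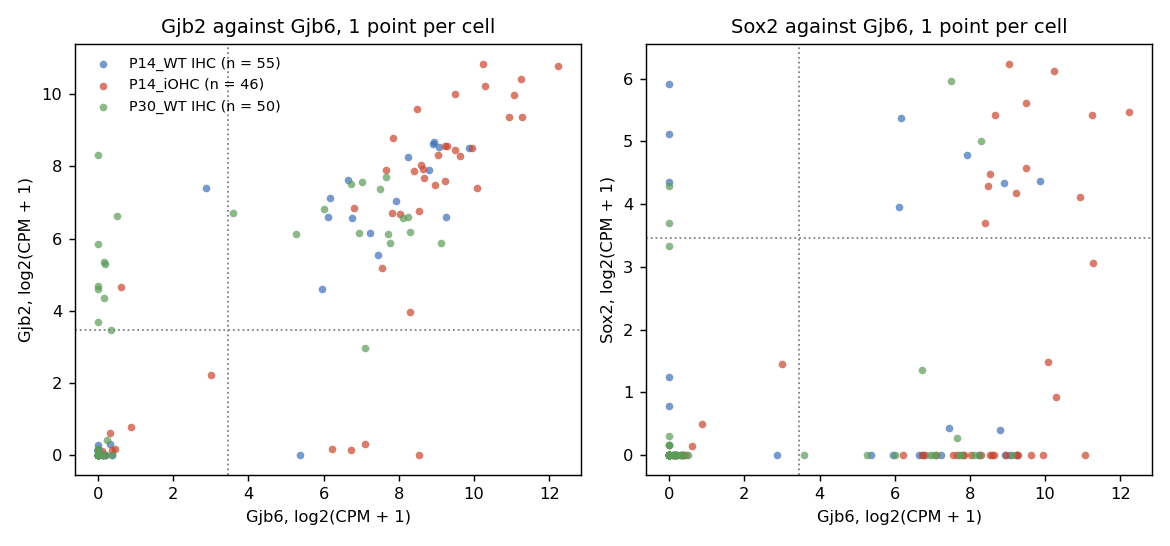
*Gjb2* (left) and *Sox2* (right) against *Gjb6* in each cell, all as log2(CPM + 1), with 1 point per cell and dotted lines at 10 CPM. *Gjb2* and *Gjb6* were both present in 30 of 46 P14_iOHCs, and all 12 P14_iOHCs with *Sox2* also lay to the right of the *Gjb6* line.

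The other genes followed *Gjb6* to different degrees. *Slc1a3* was found only in cells that also held *Gjb6* in both P14 groups, 11 of 11 P14_WT IHCs and 27 of 27 P14_iOHCs with *Slc1a3*, and in 13 of 17 P30_WT IHCs with it. *Gsn* was present in 15 of 16 P14_WT IHCs with *Gjb6*, 30 of 34 P14_iOHCs and 12 of 15 P30_WT IHCs. The counts for *Cd9* were 13 of 16, 28 of 34 and 12 of 15. *Fabp7* was present in 8 of 16 P14_WT IHCs and 18 of 34 P14_iOHCs with *Gjb6*, and *Sox2* in 5 of 16, 12 of 34 and 2 of 15. The rank correlation (rho) with *Gjb6* was highest for *Gsn* in both P14 groups, at 0.859 (r 0.884) in P14_WT IHCs and 0.919 (r 0.855) in P14_iOHCs, and lowest for *Sox2* in every group, at 0.239 (r 0.271), 0.532 (r 0.476) and -0.018 (r 0.191).

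**Figure D4:**
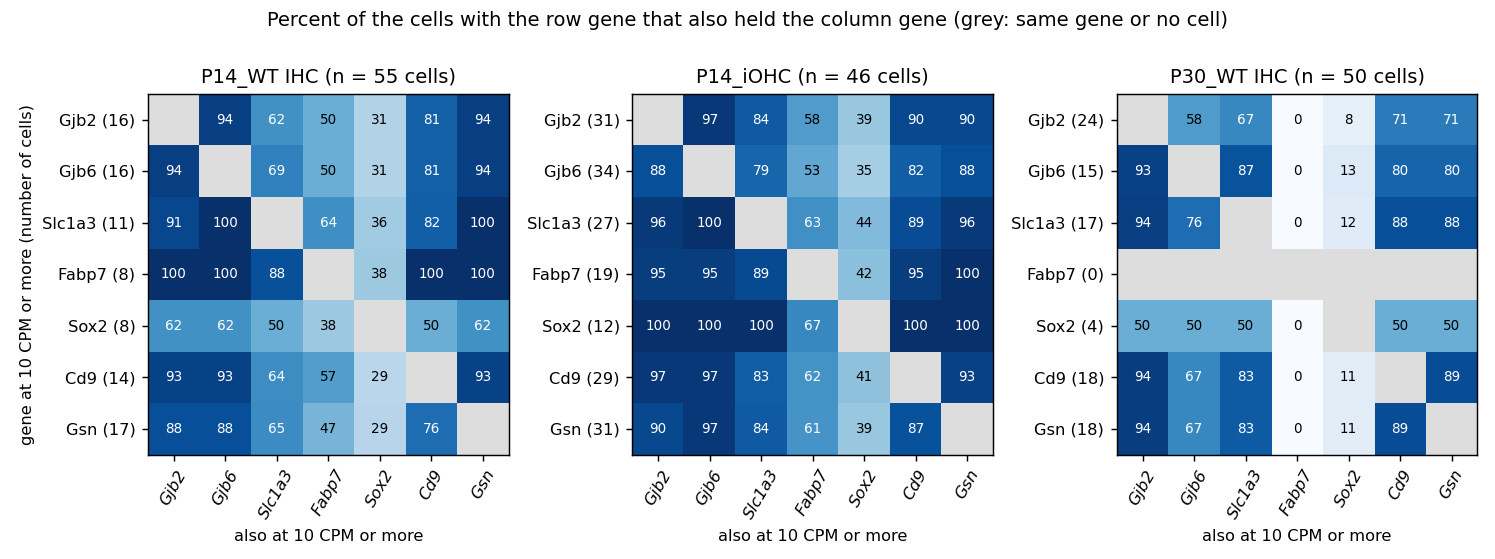
Percent of the cells with the row gene (number of cells in brackets) that also held the column gene, both at 10 CPM or more, in 55 P14_WT IHCs, 46 P14_iOHCs and 50 P30_WT IHCs. Darker blue is a higher percent and grey squares have no value; the row of *Slc1a3* reaches 100% for *Gjb6* in both P14 groups, and *Fabp7* was present in 0 P30_WT IHCs.

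*Gjb2*, *Gjb6*, *Slc1a3*, *Cd9* and *Gsn* were often present as a full set of 5, and *Fabp7* was mostly found on top of it. All 5 genes were present in 8 P14_WT IHCs, 24 P14_iOHCs and 8 P30_WT IHCs. Of the cells with *Fabp7*, 7 of 8 P14_WT IHCs and 17 of 19 P14_iOHCs held all 5. Of the P14_iOHCs with *Sox2*, 12 of 12 held all 5 genes. In P14_WT IHCs 3 of the 8 cells with *Sox2* held all 5 and 3 held none of them, and in P30_WT IHCs 2 of 4 held all 5 and 2 held none. Whether *Sox2* cells of the groups differ in this was not tested. The full combination of 7 was found in 8 P14_iOHCs and 3 P14_WT IHCs. The combination without *Sox2* was found in 9 P14_iOHCs and 4 P14_WT IHCs. In P30_WT IHCs, where *Fabp7* was missing, the 5 genes alone were the most frequent combination (6 cells), followed by *Gjb2* alone and by the 5 genes without *Gjb6* (4 cells each). Over the 10 pairs of the 5 genes, the median rho was 0.759 in P14_WT IHCs, 0.854 in P14_iOHCs and 0.678 in P30_WT IHCs.

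**Figure D5:**
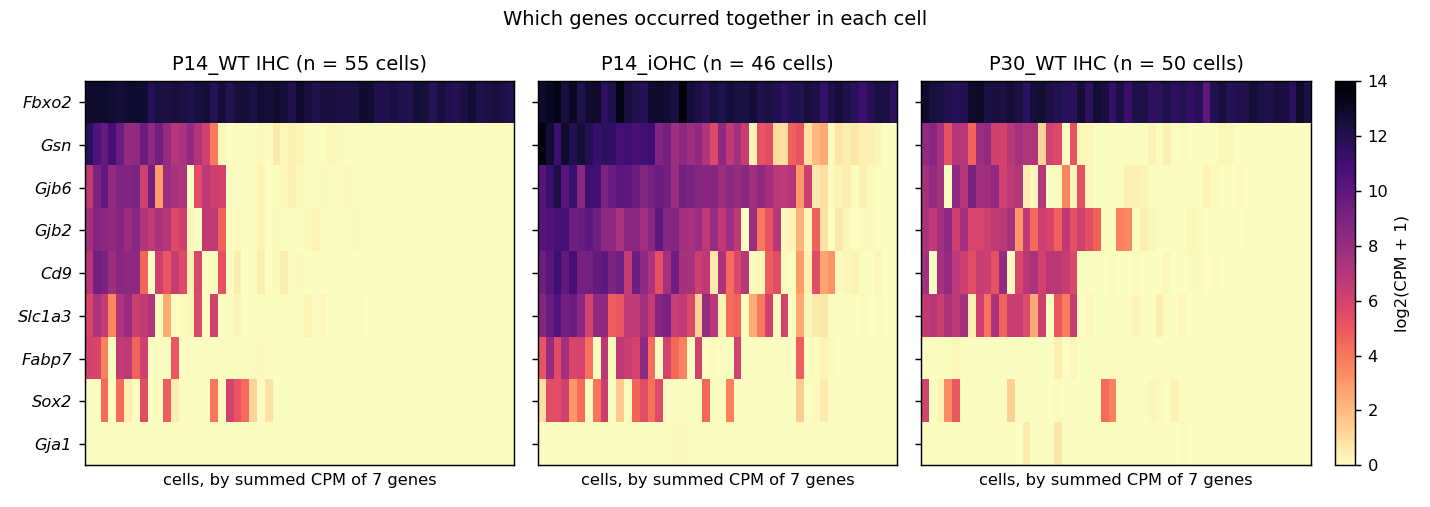
Level of each gene (rows) in each cell (columns), as log2(CPM + 1) from pale (0) to black (14), for the 3 groups. Cells are ordered from left to right by the summed CPM of the 7 variable genes, and 34 P14_WT IHCs, 10 P14_iOHCs and 23 P30_WT IHCs, most of them on the right, held none of the 7 at 10 CPM.

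The proportions between the means of the genes were also compared. Relative to the mean of *Gjb6*, that of *Gjb2* was 0.654 in P14_WT IHCs and 0.542 in P14_iOHCs. The ratio to *Gjb6* was 0.241 and 0.258 for *Slc1a3*, 0.597 and 0.510 for *Cd9*, and 2.42 and 2.29 for *Gsn*. For *Sox2* it was 0.0489 and 0.0157, and for *Fabp7* 0.0929 and 0.0577. In P30_WT IHCs the ratio was 0.767 for *Gjb2*, 0.489 for *Slc1a3*, 0.736 for *Cd9* and 0.896 for *Gsn*. Within cells that held both genes, the log2 of *Gjb2* over *Gjb6* had a median of -0.53 with an SD of 1.02 in 15 P14_WT IHCs and a median of -1.01 with an SD of 1.13 in 30 P14_iOHCs, a difference smaller than either SD.

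Cells with *Gjb6* also carried the genes of their hair cell type. All 34 P14_iOHCs with *Gjb6* held *Slc26a5*, *Ocm*, *Myo6* and *Myo7a* at 10 CPM or more. All 16 P14_WT IHCs and 15 P30_WT IHCs with *Gjb6* held *Slc17a8*, *Otof*, *Myo6* and *Myo7a*. Presence of these genes could not set the cells with *Gjb6* apart, since nearly every cell of each group held them. Of the 12 P14_iOHCs without *Gjb6*, 12 held *Slc26a5*, *Ocm* and *Myo6*, and 11 held *Myo7a*. All 39 P14_WT IHCs and 35 P30_WT IHCs without it held the 4 genes named for WT IHCs. The level of *Myo6*, a myosin of hair cells, was lower where *Gjb6* was higher in the P14 groups, with rho -0.436 (r -0.355) over 55 P14_WT IHCs and -0.540 (r -0.425) over 46 P14_iOHCs, against 0.015 (r 0.010) over 50 P30_WT IHCs. Over the P14_iOHCs, rho with *Gjb6* ran from -0.706 (*Espn*) to -0.063 (*Pcdh15*) among 12 general hair cell genes. *Espn* and *Pcdh15* are named here after their values were seen. The summed CPM of the 7 variable genes was higher in P14_iOHCs with more genes detected at equal depth (rho 0.677, r 0.604), with lower values in P14_WT IHCs (rho 0.032, r -0.086) or P30_WT IHCs (rho 0.223, r 0.170). Its rho with the total count was 0.345 (r 0.289), 0.297 (r 0.269) and -0.075 (r -0.149) in P14_WT IHCs, P14_iOHCs and P30_WT IHCs, and with the mitochondrial share of the counts -0.486 (r -0.314), -0.322 (r -0.150) and 0.055 (r -0.092). The part of these measures in the levels of the 9 genes was not tested.

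Several other markers of supporting cells were also higher in P14_iOHCs, but not all. The 25 such genes listed beside the 9 were also chosen with earlier results of these data known. Of these, 19 passed the filter, 11 were higher by more than 4-fold, 1 was lower and the median log2 ratio was 2.06, against 0.09 over all genes. The 4 with the highest means were *S100a1* (1881 CPM in P14_WT IHCs and 7868 CPM in P14_iOHCs, and a gene that hair cells also express), *Ceacam16* (13.2 and 683 CPM), *Tectb* (35.2 and 533 CPM) and *Epyc* (10.2 and 412 CPM). *Ceacam16* and *Tectb* encode proteins of the tectorial membrane. The lower gene was *Tecta*, another tectorial membrane gene, at 19.7 and 2.55 CPM, and is named here after its values were seen. Among the genes that did not pass the filter were *Prox1* (no count in either P14 group) and *Fgfr3* (0.001 and 0.544 CPM). These too are named after their values were seen. The summed level of the 25 genes ran from 1055 to 6405 CPM (median 2585) in P14_WT IHCs, from 3098 to 29999 CPM (median 8602) in P14_iOHCs and from 1269 to 7589 CPM (median 3649) in P30_WT IHCs. Much of this sum came from *S100a1* and *Rorb*, which were present in every cell. In the same order of groups, the median was 1712, 7039 and 2831 CPM for *S100a1* and 690, 341 and 765 CPM for *Rorb*. Supporting-cell RNA from outside the picked cell and expression within it cannot be told apart in these counts, and the part of either in the levels of the 9 genes was not tested.

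Among 13 other glial genes, 9 passed the filter, 3 were higher in P14_iOHCs and none was lower by more than 4-fold, and the median log2 ratio was 1.86. *Sox10*, a transcription factor gene of glia and of the otic epithelium, had means of 2.86 and 46.5 CPM in P14_WT IHCs and P14_iOHCs, *S100b* 5.11 and 30.8 CPM, and *Erbb3* 0.0360 and 20.4 CPM. *Mbp*, which encodes a myelin protein, had a mean of 3.02 CPM in P14_iOHCs. Of 10 genes of potassium transport, 9 passed the filter and 2 were higher by more than 4-fold, the channel genes *Kcnj16* (13.9 and 178 CPM) and *Kcnj10* (2.59 and 29 CPM). None was lower by more than 4-fold.

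Few markers of further cell types differed by more than 4-fold between the P14 groups, although some were not low. Of 8 neuronal genes, 4 passed the filter and none passed 4-fold in either direction. These were *Nefl* (154 and 66.9 CPM in P14_WT IHCs and P14_iOHCs), *Nefm* (102 and 35.5 CPM), *Snap25* (128 and 173 CPM) and *Tubb3* (2.46 and 0.959 CPM). They are named here after their values were seen. The fibroblast list had 2 of 5 filtered genes higher, *Lum* (49.1 and 339 CPM) and *Col3a1* (0 and 3.82 CPM, named after its values were seen). *Pdgfra* of this list, also named after its values were seen, was at 62.4 and 30.7 CPM. Over the P14_iOHCs, rho with *Gjb6* was 0.751 for *Lum* and -0.251 for *Pdgfra*. *Lum* was also among the 5 genes closest to *Gsn* (rho 0.881). No gene of the endothelial, blood or interdental lists passed 4-fold. In the immune list 1 gene was lower in P14_iOHCs, *C1qb*, at 26.4 and 0.208 CPM, and *Ptprc*, which marks all leukocytes, had a mean under 1 CPM in every group. Of the 5 IHC genes listed, 4 were lower in P14_iOHCs, and of the 5 OHC genes, 4 were higher, in each case by more than 4-fold. Among 12 general hair cell genes 2 were higher and 1 was lower, with a median log2 ratio of -0.10.

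Between the ages, 2 of the 9 genes passed 4-fold. The ratio of P30_WT IHCs to P14_WT IHCs, which shares its P14_WT IHCs with the comparison above, passed 4-fold downwards for *Fabp7* (log2 ratio -3.17) and *Gsn* (log2 ratio -2.02) and upwards for none. Of 15436 genes that passed the filter, 1.25% were higher and 1.48% were lower by more than 4-fold. The log2 ratios of the others were -0.38 for *Gjb2*, -0.61 for *Gjb6*, 0.39 for *Slc1a3*, -0.52 for *Sox2*, -0.22 for *Fbxo2* and -0.30 for *Cd9*. The value for *Gsn* rests on a few P14_WT IHCs. It was -1.66 without the cell with the highest summed level in each group and -0.85 without the 5 such cells, an alternative chosen after the data were seen, and it turned to 1.62 in the lower set of totals. *Fabp7* was at 0.030 in that set, where *Cd9* and *Slc1a3* were higher and *Sox2* was lower by more than 4-fold. Among the other supporting-cell markers, 2 of 19 were higher at P30, *Hey2* (0.868 and 18.3 CPM) and *Matn4* (0.0544 and 4.24 CPM), and 1 was lower, *Epyc* (10.2 CPM at P14 and no count at P30). The other glial genes had 1 of 7 higher, *Erbb3* (0.0360 and 4.06 CPM), and 1 lower, *Ednrb* (11 and 1.40 CPM). *Matn4* and *Erbb3* are named here after their values were seen.

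The difference between the P14 groups was found in both sets of library totals for the 5 genes past 4-fold. In the lower set the log2 ratio of P14_iOHCs to P14_WT IHCs was 4.23 for *Gjb2*, 4.50 for *Gjb6*, 3.77 for *Slc1a3*, 6.15 for *Cd9* and 5.84 for *Gsn*, and in the upper set it was 2.19, 2.50, 2.70, 2.22 and 2.35. *Sox2* was at -0.32 in the lower set and 1.59 in the upper set, and *Fabp7* at 4.81 and 1.64. *Gjb2* and *Gjb6* were both present in 2 of 16 P14_WT IHCs and 7 of 12 P14_iOHCs of the lower set, and in 13 of 39 and 23 of 34 of the upper set. Without the 5 cells with the highest summed level in each group, the ratios were 2.71 for *Gjb2*, 2.94 for *Gjb6*, 2.32 for *Slc1a3*, 3.09 for *Cd9* and 3.31 for *Gsn*.

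The other genes whose levels followed those of the 9 most closely over the 46 P14_iOHCs were drawn from 9000 genes that were present in at least 10 of these cells. The 9 genes themselves were left out of the search, although some followed each other as closely, such as *Gsn* and *Gjb6* (rho 0.919), and *Gja1*, present in 0 cells, was given no neighbours. The median rho over those genes was 0.091 for *Gjb6* and 0.107 for *Gsn*. *Gjb6* was closest to *Sparc*, which encodes a matrix protein (rho 0.909, r 0.913), followed by *Gm11223*, *Stmn1*, *Rnd2* and *Anxa5*. *Sparc* was also closest to *Cd9* (rho 0.894, r 0.830) and was the next after *Bcam* (rho 0.906, r 0.888) for *Gsn*. The gene closest to *Gjb2* was *Marcksl1* (rho 0.887, r 0.936), and *Slc1a3* was closest to *Dbi*, which encodes an acyl-CoA-binding protein (rho 0.865, r 0.771). *Gm11223*, among the 5 closest to *Gjb2*, *Gjb6*, *Slc1a3* and *Fbxo2*, and *Gm7665*, among those of *Gjb2*, are processed pseudogenes, whose reads may come from their parent genes. The relation of *Sparc* to *Gjb6* was also seen in cells that were not used to choose it, with rho 0.761 over 55 P14_WT IHCs and 0.632 over 50 P30_WT IHCs. Other neighbours had lower values in these 2 groups. For *Marcksl1* with *Gjb2*, rho was 0.621 and 0.435, and for *Dbi* with *Slc1a3* it was 0.400 and 0.420.

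*Fabp7* and *Sox2* had other neighbours. *Fabp7* was closest to *Otol1*, which encodes otolin (rho 0.807, r 0.772), followed by *Mal2*, *Mapk13*, *Trp53i11* and *Cpxm2*. *Sox2* was closest to *Mir100hg* (rho 0.822, r 0.835), followed by *Grhl1*, *Id1*, *Dmd* and *Klf5*, none of which was among the 5 closest to another of the 9 genes. *Fbxo2*, although high in every cell, was closest to *Tmem79* (rho 0.706, r 0.698) and then to *Gm11223* and *Stmn1*, which were also near *Gjb6*, and its own rho with *Gjb6* was 0.631 (r 0.576) in P14_iOHCs, 0.403 (r 0.352) in P14_WT IHCs and 0.26 (r 0.408) in P30_WT IHCs. Several of these neighbours were far weaker in the WT IHCs. Over P14_WT IHCs, the rho of *Fabp7* was 0.120 with *Otol1* and -0.003 with *Trp53i11*, but 0.501 with *Cpxm2*. Over P14_WT IHCs and P30_WT IHCs, *Sox2* had 0.138 and -0.018 with *Grhl1*, and *Fbxo2* had 0.219 and -0.125 with *Tmem79*.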

How the data were processed

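Single cells were picked by hand, amplified (Smart-Seq HT) and sequenced by the authors, who aligned paired-end reads to GRCm38 with HISAT2 2.1.0 and counted reads per gene with HTSeq 0.10.0. FastQC 0.11.9, Trimmomatic 0.39 and StringTie 1.3.5 are also named in the submitters' processing notes. The values deposited by the authors are raw counts per gene and cell, without normalization. Which annotation was used, whether strand was counted and how multiply aligned reads were handled is not given in the sources used here.

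The 151 cells were grouped by their labels, and no 2 libraries of a group were identical. CPM was obtained by scaling the 55291 genes of each cell to a sum of 1000000. Group ratios were log2((mean CPM + 1)/(mean CPM + 1)), over genes that averaged 1 CPM or more in either group, and were read against a 4-fold threshold. No test was run, because the labels name no animals and cells are not replicates. Shares of cells have exact (Clopper-Pearson) 95% intervals, and for a share of 0 the upper limit is given. These limits cover counting error only, since cells of a mouse are not independent. No molecular identifiers were used, so reads are not separate molecules. For equal depth, each cell was thinned to 4326416 counts (seed 20220). Locations came from GENCODE M21 and promoter windows from RefSeq.

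The 9 genes and the 14 lists beside them were chosen with earlier results of these data known. Named genes were the 9, those of each list past 4-fold with a mean of at least 10 CPM (at most 4, by mean), and the 5 genes outside the 9 that were closest by Spearman's rho to each of the 9 except *Gja1*. The alternatives were pooled counts, edgeR 4.0.16 TMM and DESeq2 1.42.0 size factors as scalings, other pseudocounts, filters, folds and presence thresholds, thinned counts, the sets of totals, and omission of extreme cells. The ratio step was tested on simulated data. Python 3.11.15 and R 4.3.3 were used. Some genes of the lists are not reported here.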

Additional observations from a re-analysis of the deposited data

How the results depend on the processing

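In P14_iOHCs against P14_WT IHCs, 5 or 6 of the 9 genes were higher by more than 4-fold (more than 2-fold in 1 setting) and 0 were lower under all 15 alternatives. The ratio of P30_WT IHCs to P14_WT IHCs was less stable. Of the 2 genes that were lower, 1 was still counted with TMM or DESeq2 scaling and with a filter of 10 CPM. The same number was counted without the cell or the 5 cells of highest summed level. It was also 1 without cells over 3 median absolute deviations in detected genes. With a pseudocount of 10 CPM or a difference of mean logs, 0 were counted. In the lower set of totals neither of the 2 was counted, since the log2 ratio turned to 0.030 for *Fabp7* and to 1.62 for *Gsn*. There 1 other gene was lower (*Sox2*) and 2 were higher (*Slc1a3* and *Cd9*). That set holds fewer cells, and the cause was not tested.

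The share of cells with both *Gjb2* and *Gjb6* depended on the presence threshold. At 100 CPM it was 12.7% in P14_WT IHCs and 8% in P30_WT IHCs, and in the lower set of totals 12.5% in P14_WT IHCs. In P14_iOHCs it was 87.0% at 1 count and 80.4% after thinning. The share of cells with *Gjb6* that also held *Gjb2* fell to 63.6% (P14_WT IHCs) and 33.3% (P30_WT IHCs) at 100 CPM. It was 100% in P30_WT IHCs at 1 CPM and in the upper set, and 100% in P14_WT IHCs and P14_iOHCs in the lower set.

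Counts over all genes moved most with the pseudocount and the fold: from 206 to 3158 higher and 100 to 2148 lower in P14_iOHCs, and from 8 to 1644 higher and 16 to 1744 lower in P30_WT IHCs. No paired analysis was possible because the labels name no animals by which cells could be paired across the groups, and no test was made.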
